A study of Mus musculus with 9 samples.

Results

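Ribosome biogenesis genes encode the proteins that transcribe, modify, cut and fold ribosomal RNA and assemble it with ribosomal proteins. The 32 genes described here were given by name, and all 32 were found among the 41128 rows of the table by their symbols. RNA-seq read counts were analyzed from lymphomas of 3 Smc3 wt/wt;Cγ1 wt/cre;IµBcl6 mice (Bcl6 tumors) and 6 Smc3 wt/–;Cγ1 wt/cre;IµBcl6 mice (Smc3/Bcl6 tumors), with 1 library per tumor. All 9 tumors carried the IµBcl6 transgene, which keeps Bcl6 expressed in B cells through the immunoglobulin heavy-chain locus, and the Cγ1-Cre allele, which is active in B cells entering the germinal center reaction. The genotypes therefore differed by loss of 1 Smc3 allele in those cells, and the Cre allele was present in the control tumors as well. The age of these mice is not given in the sources used here. No source used here says whether the libraries came from independent litters, so that p-values measure the spread between these tumors.

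Ribosome production starts in the nucleolus, where RNA polymerase I transcribes ribosomal DNA and proteins such as nucleolin and nucleophosmin organize the compartment. Small nucleolar ribonucleoproteins (snoRNPs) of the box C/D type methylate the transcript and those of the box H/ACA type convert uridines to pseudouridine, after which separate sets of factors build the small and the large ribosomal subunit. Myc is a transcription factor that binds the E-box CACGTG, is known to raise transcription of many of these genes, and is expressed in a subset of germinal center B cells and in many lymphomas.

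Because the relation to Myc is 1 of the comparisons below, the promoters of the genes were searched for the E-box, which reads the same on both strands. RefSeq promoters of GRCm38.p6 (250 bases before to 50 bases after the annotated start) were matched by symbol to 27 of the 32 genes, and 8 of the 27 (29.6%) held CACGTG. The motif was held by 7.15% of all 32851 promoters in the RefSeq table, by 11.6% of the promoters matched to genes tested here, and by 17.2% of the 93 promoters matched to other ribosome biogenesis genes. Bop1, Fbl, Npm1, Rrp12 and Rrs1 were not matched. The 30 bases around each of the 8 motifs are shown on the strand of the gene, with the E-box in capitals, since these are the sequences to which the Myc values below can be set.
Ltv1, chr10:13193092-13193121, minus strand: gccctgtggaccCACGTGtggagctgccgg
Mybbp1a, chr11:72441347-72441376, plus strand: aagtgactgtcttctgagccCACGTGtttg
Nle1, chr11:82908355-82908384, minus strand: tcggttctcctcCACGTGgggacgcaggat
Nop2, chr6:125131811-125131840, plus strand: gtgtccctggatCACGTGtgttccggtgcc
Pes1, chr11:3963965-3963994, plus strand: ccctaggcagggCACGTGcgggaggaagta
Tsr1, chr11:74898092-74898121, plus strand: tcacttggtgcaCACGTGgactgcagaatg
Utp20, chr10:88826765-88826794, minus strand: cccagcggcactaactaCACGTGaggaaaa
Wdr43, chr17:71616220-71616249, plus strand: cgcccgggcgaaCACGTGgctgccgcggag
Of these 8 motifs, 7 lay after the annotated start and that of Nop2 lay 60 bases before it. A match is a description of these letters only.

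The deposited values were raw read counts per gene, with totals from 10156728 to 17774577 per library. All 32 genes passed the filter on low counts and were among the 14057 genes tested, with sums over the 9 tumors from 1094 counts (Fbl) to 79145 counts (Ncl). Smc3, the targeted gene, had 126, 99.5 and 88.1 CPM (read counts scaled to library size by TMM) in Bcl6 tumors 1 to 3 and 107, 27.9, 105, 89.7, 111 and 108 CPM in Smc3/Bcl6 tumors 1 to 6, a log2 fold change of -0.19 (standard error 0.38), and 0.02 (standard error 0.14) without Smc3/Bcl6 tumor 2. Lower Smc3 transcript in Smc3/Bcl6 tumors was therefore not detectable in these counts outside tumor 2, and the genotypes are those of the labels. The study itself reported reduced Smc3 in Smc3/Bcl6 tumors, with RT-qPCR in 3 tumors of each genotype. In the library of tumor 2 longer transcripts tended to be lower (described below), and whether this bears on its Smc3 value was not tested. Smc3/Bcl6 tumor 2 stood apart from the other 8 libraries, with a TMM factor of 0.693 and a quality weight of 0.125 in limma, so the main comparisons are given with and without it. The sum of 8 B-cell markers was between 3112 and 12075 CPM, with none of the 8 at 0 in any tumor. By the labels, tumor 1 of each genotype was a mesenteric lymph node, and the other 7 are named only as a lymph node. The text of the study places all of the sequenced tumors in the mesenteric node, so that the label may not mark a different tissue.

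On the scale of CPM per kilobase of the principal transcript, averaged over the 8 tumors other than Smc3/Bcl6 tumor 2, levels of the genes ranged from 4.66 (Utp20) to 110 (Nhp2). Nhp2, Npm1 (109), Nop56 (97.8) and Nop58 (90.2) were the most abundant. The RNA polymerase I subunit gene Polr1a (6.56) and the rRNA methyltransferase gene Fbl (6.70) were among the least abundant. Fbl and Npm1 have annotated near-identical copies elsewhere in the genome, and reads shared with a copy may not have been counted, so that their levels are uncertain.

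The first comparison asked whether the genes differed between Smc3/Bcl6 and Bcl6 tumors. By the thresholds used in the study (unadjusted p below 0.1, with a log2 fold change above 0.56 in absolute size), none of the 32 genes differed in edgeR, whereas 2.15% of all genes tested did (1.28% higher and 0.868% lower in Smc3/Bcl6). The study used DESeq2 and reported more genes lower than higher in Smc3/Bcl6 tumors. Here more were higher, with 180 against 122 lower by edgeR and 342 against 101 lower by DESeq2. After Benjamini-Hochberg adjustment of the p-values from edgeR, 0 of the 32 and 0 of all 14057 genes passed 0.05, and 0.562% of all genes but 0 of the 32 had an unadjusted p below 0.05. At that unadjusted level DESeq2 also had 0 of the 31 genes to which it gave a p (1.52% of all genes), and limma with quality weights 2 of the 32 (8.33% of all genes). The log2 fold changes ranged from -0.37 (Rrp1b) to 0.57 (Nhp2) with standard errors from 0.22 to 0.77, and 0 of the 32 lay beyond 2 standard errors. They were negative for 19 genes and positive for 13, with a median of -0.06, beside a median of 0.06 over all genes tested, of which 42.6% were negative. In 0 of the 32 genes were the values of the genotypes without overlap (0.484% of all genes tested).

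Without Smc3/Bcl6 tumor 2, the log2 fold changes were negative for 27 of the 32 genes, with a median of -0.16 and a range from -0.47 (Gar1) to 0.12 (Rrp12). The median over all genes tested was then 0.03, and 46.7% were negative. Again 0 of the 32 passed the thresholds (3.96% of all genes did), 0 lay beyond 2 standard errors, which ranged from 0.14 to 0.33, and 0 had genotypes without overlap (1.69% of all genes). The sign of the log2 fold change turned for 12 of the 32 genes when this tumor was left out. With another tumor left out instead, 16 (without Bcl6 tumor 1 or Smc3/Bcl6 tumor 5) to 24 (without Bcl6 tumor 2) were negative. Of all 14057 genes tested, 6271, 5894 and 6320 were negative in these fits, in that order. With the tissue label as a covariate, 17 of the 32 were negative (5934 of all genes). The count of negative values thus depended on which tumor was left out. The standard errors show which sizes the comparison could resolve, with a median of 0.32 over 9 tumors and 0.22 over 8.

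**Figure D1:**
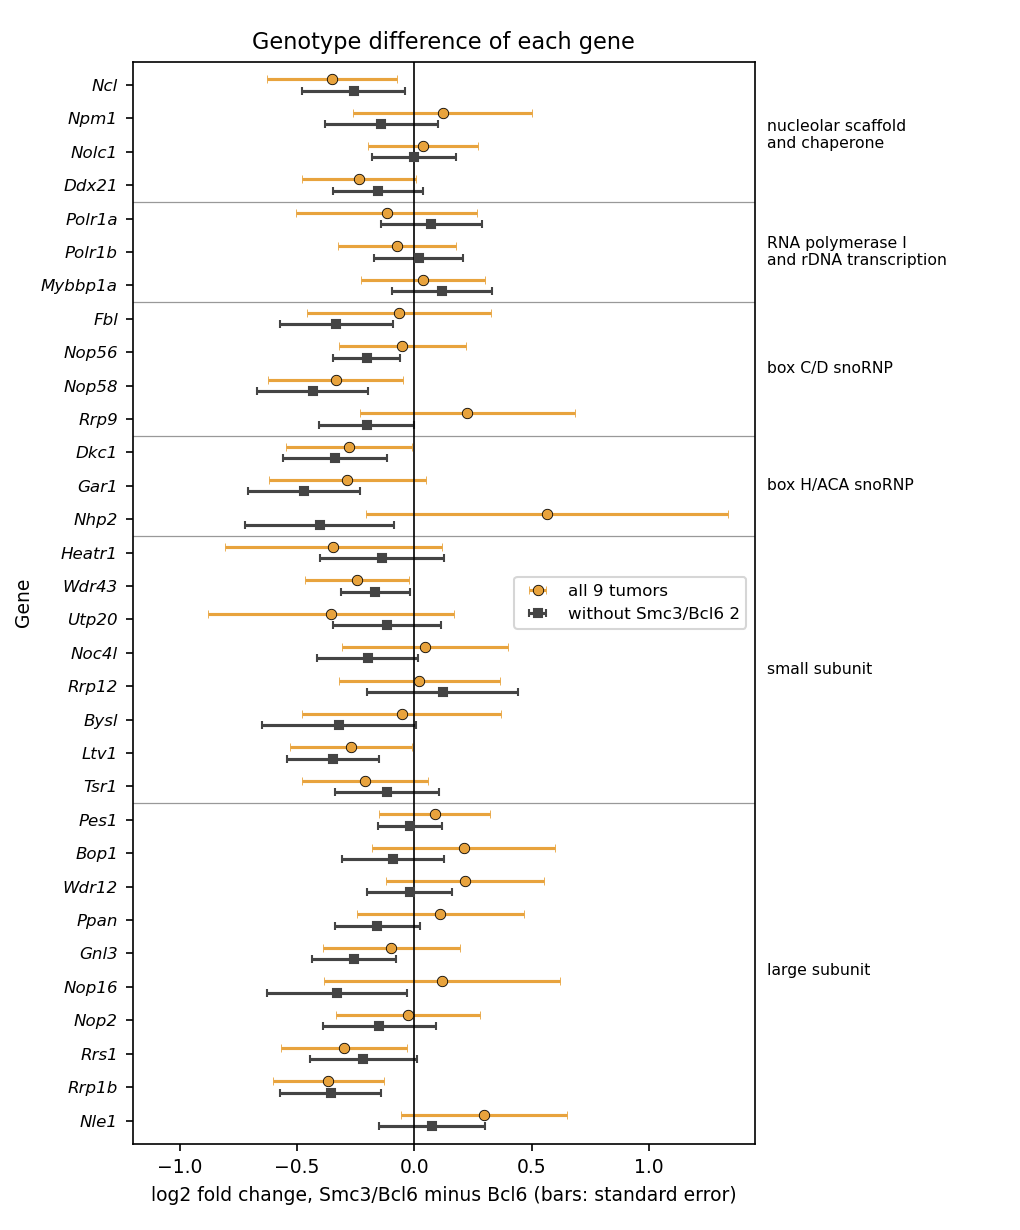
Log2 fold change (x axis, Smc3/Bcl6 minus Bcl6) of each of the 32 genes (y axis, grouped by role), with bars of 1 standard error, over all 9 tumors (circles) and without Smc3/Bcl6 tumor 2 (squares). Over all 9 tumors 19 of the 32 values lie below 0. Without Smc3/Bcl6 tumor 2, 27 lie below 0, and none is beyond 2 standard errors.

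The mean log2 CPM of the 32 genes was 6.82, 6.36 and 6.33 in Bcl6 tumors 1 to 3. It was 6.60, 6.68, 6.40, 5.95, 6.22 and 6.39 in Smc3/Bcl6 tumors 1 to 6. The highest value was thus that of a Bcl6 tumor and the lowest that of Smc3/Bcl6 tumor 4, and the other 7 tumors of both genotypes were interleaved. Means were 6.51 ± 0.28 (SD, n = 3) and 6.37 ± 0.27 (SD, n = 6), a difference of -0.13 on the log2 scale, which is less than the SD in either genotype. Without Smc3/Bcl6 tumor 2, and with the other tumors rescaled, the means were 6.56 ± 0.23 (SD, n = 3) and 6.38 ± 0.24 (SD, n = 5), a difference of -0.18. The highest value of each genotype other than that of Smc3/Bcl6 tumor 2 came from the tumor labelled as mesenteric lymph node. Among tumors labelled as lymph node the difference was -0.02 (2 Bcl6 against 5 Smc3/Bcl6 tumors) and -0.12 without Smc3/Bcl6 tumor 2, and between the pair labelled as mesenteric it was -0.23. Within the pairs of tumors with the same replicate number the differences were -0.23, 0.33 and 0.07, with a mean of 0.06. The positive sign of that mean came from the pair with Smc3/Bcl6 tumor 2, and the mean of the other two pairs was -0.08.

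**Figure D2:**
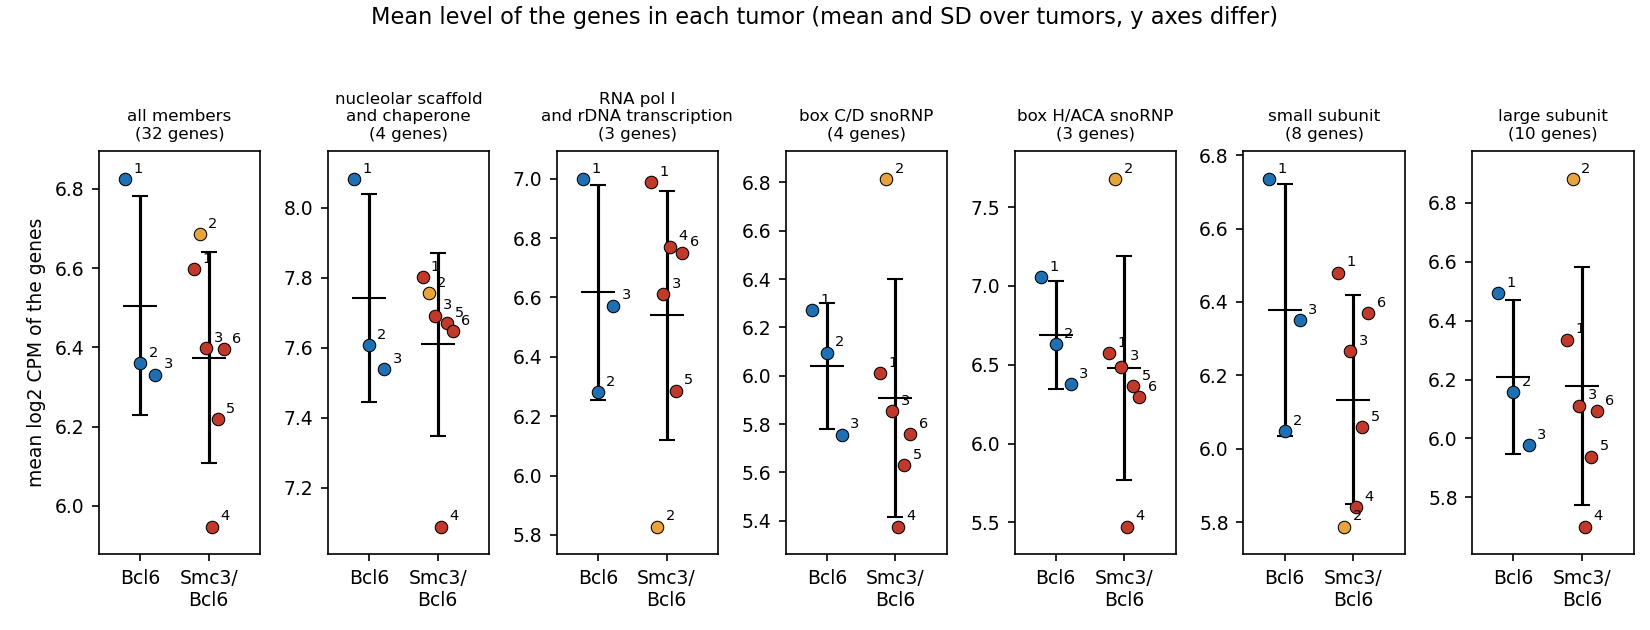
Mean log2 CPM (y axis, a different range in each panel) of all 32 genes and of each role, in Bcl6 (blue) and Smc3/Bcl6 (red, tumor 2 in orange) tumors, with the mean and SD of each genotype and the replicate number beside each point. Genotypes overlap in every panel, and Smc3/Bcl6 tumor 4 is lowest in the panel of all members at 5.95.

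Nucleolar scaffold and chaperone genes are the nucleolar RNA-binding protein nucleolin (Ncl), the chaperone nucleophosmin (Npm1), the snoRNP chaperone Nolc1 and the RNA helicase Ddx21. Their log2 fold changes were -0.35 (Ncl), 0.12 (Npm1), 0.04 (Nolc1) and -0.24 (Ddx21) over 9 tumors, and all 4 were negative without Smc3/Bcl6 tumor 2. Npm1 (ENSMUSG00000057113.8, GRCm38 chromosome 11 from 33152287 to 33163206) was at 241, 174 and 157 CPM in the Bcl6 tumors and 196, 393, 168, 107, 216 and 165 CPM in Smc3/Bcl6 tumors 1 to 6. The values of both genotypes overlapped, with Smc3/Bcl6 tumors at both ends of the range. The genotype difference over 9 tumors was 0.12 on the log2 scale (standard error 0.38, adjusted p = 1 from edgeR) and -0.14 (standard error 0.24) over 8.

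The RNA polymerase I group holds Polr1a and Polr1b, which encode the largest subunits of the enzyme, and Mybbp1a, a nucleolar factor in ribosomal DNA transcription and RNA processing. This was the only role in which all log2 fold changes were positive without Smc3/Bcl6 tumor 2, at 0.07, 0.02 and 0.12, each below its standard error (0.21, 0.19 and 0.21). Over 9 tumors they were -0.12, -0.07 and 0.04. Mybbp1a (ENSMUSG00000040463.11, chromosome 11 from 72441355 to 72451768) was at 335, 186 and 257 CPM in the Bcl6 tumors and 334, 206, 262, 279, 218 and 298 CPM in Smc3/Bcl6 tumors. Its highest and its lowest value were both from Bcl6 tumors. Polr1a (ENSMUSG00000049553.9, chromosome 6 from 71909053 to 71984935), whose principal transcript of 9216 nt was the longest of the 32, was at 72.9, 46.5 and 57.4 CPM in the Bcl6 tumors and 79.6, 19.2, 56.1, 68.7, 43.8 and 58.4 CPM in Smc3/Bcl6 tumors. Smc3/Bcl6 tumor 2 was the lowest by far, and the mean of the other 5 was 61.3 ± 13.5 CPM (SD, n = 5), against 59.0 ± 13.3 CPM (SD, n = 3) in Bcl6 tumors.

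Of the box C/D snoRNP genes, Fbl encodes the methyltransferase, Nop56 and Nop58 its core partners, and Rrp9 a protein of the snoRNP that guides early cleavage of the transcript. Nop56 (ENSMUSG00000027405.11, chromosome 2 from 130274430 to 130279313) was at 230, 214 and 160 CPM in the Bcl6 tumors and 180, 304, 190, 158, 165 and 170 CPM in Smc3/Bcl6 tumors. Apart from Smc3/Bcl6 tumor 2 at 304 CPM, the Smc3/Bcl6 tumors lay in a narrow range of 173 ± 12.7 CPM (SD, n = 5), within that of the Bcl6 tumors or just below it. Its log2 fold change was -0.05 (standard error 0.27) and -0.20 (standard error 0.14) without that tumor. All 4 genes had negative values without Smc3/Bcl6 tumor 2, from -0.43 (Nop58) to -0.20.

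Box H/ACA snoRNP genes are Dkc1, which encodes the pseudouridine synthase dyskerin, and its partners Gar1 and Nhp2. Nhp2 (ENSMUSG00000001056.3, chromosome 11 from 51619735 to 51623714) has the shortest principal transcript (1042 nt), the largest SD over the tumors and the largest positive log2 fold change of the 32 genes. It was at 171, 132 and 106 CPM in the Bcl6 tumors and 133, 705, 112, 44.8, 113 and 105 CPM in Smc3/Bcl6 tumors. Smc3/Bcl6 tumor 2 was thus far above and Smc3/Bcl6 tumor 4 far below all others. The genotype difference was 0.57 on the log2 scale over 9 tumors (standard error 0.77, adjusted p = 1 from edgeR) and -0.40 (standard error 0.32, adjusted p = 0.985) without tumor 2, and exact permutation of log2 CPM over the 84 splits of the tumors gave a two-sided p of 0.976. Dkc1 and Gar1 had -0.28 and -0.29 over 9 tumors, and -0.34 and -0.47 over 8.

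Among small-subunit genes, Heatr1, Wdr43, Utp20 and Noc4l act in early processing, Rrp12 in export and maturation, and Bysl, Ltv1 and Tsr1 in late assembly. Wdr43 (ENSMUSG00000041057.9, chromosome 17 from 71615895 to 71659031) was at 302, 235 and 222 CPM in the Bcl6 tumors and 258, 170, 221, 196, 223 and 215 CPM in Smc3/Bcl6 tumors. Most Smc3/Bcl6 values lay near the lower end of the Bcl6 range or under it, with a log2 fold change of -0.24 (standard error 0.22) and an exact two-sided permutation p of 0.155, or -0.17 (standard error 0.15) without Smc3/Bcl6 tumor 2. Of the 8 genes, 6 had negative log2 fold changes over 9 tumors and 7 over 8, and Rrp12 was the exception at 0.12 (standard error 0.32). When same-numbered tumors 1 to 3 were fitted as pairs, with the number as a block, Utp20 alone of the 32 passed the thresholds, lower in Smc3/Bcl6 at -1.12 (standard error 0.52, adjusted p = 0.983 from edgeR), as did 1.90% of the genes tested in that fit. With limma's quality weights, Rrp12 alone passed them, higher at 0.69 (standard error 0.30, adjusted p = 0.563 from limma), as did 4.57% of genes. Utp20 was at 55.0, 28.9 and 46.4 CPM in the Bcl6 tumors and 41.8, 5.50, 30.8, 36.7, 40.3 and 48.7 CPM in Smc3/Bcl6 tumors, so that only Smc3/Bcl6 tumor 2 was outside the range of the Bcl6 tumors.

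Large-subunit genes are Pes1, Bop1 and Wdr12, whose products form 1 complex, the GTPase Gnl3 (nucleostemin), the rRNA methyltransferase Nop2, and the assembly factors Ppan, Nop16, Rrs1, Rrp1b and Nle1. Bop1 (ENSMUSG00000022557.10, chromosome 15 from 76452989 to 76477277) was at 195, 156 and 158 CPM in the Bcl6 tumors and 227, 390, 161, 117, 129 and 154 CPM in Smc3/Bcl6 tumors. The Bcl6 values lay inside the range of the Smc3/Bcl6 tumors, and the log2 fold change was 0.21 (standard error 0.39), or -0.09 (standard error 0.22) without tumor 2. Rrp1b (ENSMUSG00000058392.7, chromosome 17 from 32036100 to 32062865), which had the largest negative value of the 32, was at 73.6, 87.9 and 92.6 CPM in the Bcl6 tumors and 83.8, 64.9, 81.7, 51.5, 49.7 and 62.5 CPM in Smc3/Bcl6 tumors. Smc3/Bcl6 tumors 2, 4, 5 and 6 were below the Bcl6 range and tumors 1 and 3 inside it. Its genotype difference was -0.37 on the log2 scale (standard error 0.24, adjusted p = 1 from edgeR), which was nearly the same without tumor 2, at -0.36 (standard error 0.22), with an exact two-sided permutation p of 0.107 over 9 tumors, where 0.0238 is the smallest possible. With limma's quality weights Rrp1b was at -0.43 (unadjusted p = 0.0295 from limma). It and Rrp12 were the 2 genes below 0.05 in that fit, beside 8.33% of all genes, and no gene passed after adjustment. Of the 10 large-subunit genes, 4 were negative over 9 tumors and 9 over 8, the exception being Nle1 at 0.08 (standard error 0.23).

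Of 113 other ribosome biogenesis genes listed by role, 112 were found, and all 112 were tested. None passed the thresholds (2.15% of all genes tested did). Log2 fold changes were negative for 58 and positive for 54, with a median of -0.01 and a range from -0.46 to 0.77. Over all genes tested 42.6% were negative, with a median of 0.06. Without Smc3/Bcl6 tumor 2, 92 were negative and 20 positive, with a median of -0.12, beside 46.7% negative and a median of 0.03 over all genes tested. With another tumor left out instead, 42 (without Bcl6 tumor 1) to 79 (without Bcl6 tumor 3) of the 112 were negative. By role, the negative values over 8 tumors were 12 of 14 further RNA polymerase I and rDNA transcription genes, 6 of 6 box C/D, 2 of 3 box H/ACA, 35 of 41 small-subunit and 37 of 48 large-subunit genes. The further RNA polymerase I genes (median -0.07) thus were mostly negative, whereas Polr1a, Polr1b and Mybbp1a were positive, each by less than its standard error.

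Smc3/Bcl6 tumor 2 split the 32 genes by length. Relative to the mean log2 CPM of the other 8 tumors, Nhp2 was at 2.70, 6.50-fold higher, and Utp20 (principal transcript 8821 nt) was at -2.84, 7.15-fold lower. Of the 16 shorter genes (up to 2491 nt), 15 were above the mean of the others, with a median of 1.08, and of the 16 longer genes (from 2597 nt) 11 were below it, with a median of -0.45. The exceptions were Rrs1 among the shorter genes and Bysl, Dkc1, Nop2, Pes1 and Wdr12 among the longer. Across the 32 genes the deviation had a Spearman rho of -0.79 with the length of the principal transcript and -0.76 with its coding length, beside -0.53 with transcript length across all genes tested with a length. These are correlations across genes of 1 library, and genes are not replicates. Values of this tumor were above all 8 others for 16 of the 32 genes and below them for 5, whereas this was so for 29.0% and 30.9% of all genes tested. The SD of the 32 deviations was 1.15 in this tumor and from 0.14 to 0.35 in the others. Over all genes tested it was larger, at 1.47 in this tumor and from 0.67 to 1.02 in the others. The wide spread in this tumor was thus not particular to the 32 genes. Their mean in this tumor (6.68) averages values that moved far in opposite directions. Myc (principal transcript 1365 nt) was 0.76 above the other tumors here.

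**Figure D3:**
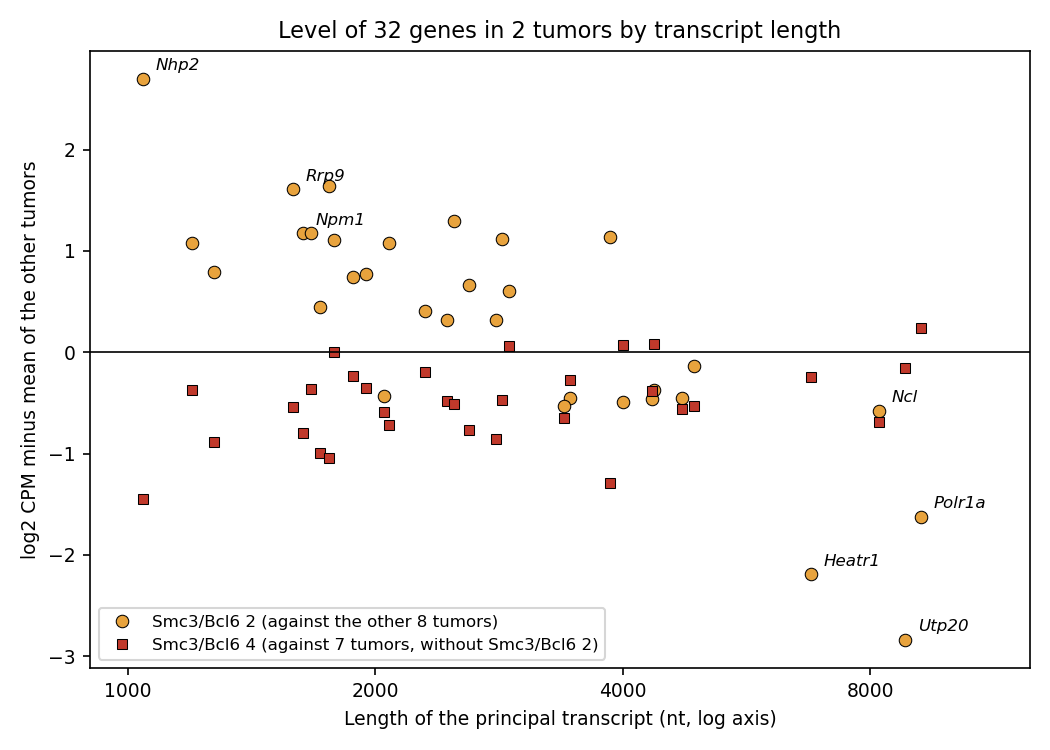
Deviation in log2 CPM (y axis) of the 32 genes in Smc3/Bcl6 tumor 2 (circles, against the mean of the other 8 tumors) and Smc3/Bcl6 tumor 4 (squares, against the mean of the 7 tumors other than these) by length of the principal transcript (x axis, nt, log scale). In tumor 2 the values run from 2.70 (Nhp2) down to -2.84 (Utp20) with length, and in tumor 4 they lie below 0 for 27 of the 32 genes.

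Apart from that tumor the genes moved together across tumors. Over the other 8 tumors, the median Pearson r between the 496 pairs of the 32 genes was 0.61, with 468 pairs positive, beside a median of -0.01 between all pairs of genes tested. Over all 9 tumors the median was 0.46. The median SD of log2 CPM over 8 tumors was 0.30 for the 32 genes and 0.43 for all genes tested. These values share libraries and scaling and are given as a description.

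Tumors differed in how many of the genes lay on the same side of the mean. Bcl6 tumor 1 was above the mean of the 8 tumors for all 32 genes (median 0.45, beside 0.06 over all genes tested) and was the highest of the 8 for 23 of them (14.9% of all genes). Smc3/Bcl6 tumor 4 was below the mean of the other 7 for 27 of the 32 genes (median -0.49, beside 0.00 over all genes) and was the lowest of the 8 for 22 of them (23.9% of all genes). In that tumor Nhp2 (-1.45), Bysl (-1.29), Nop16 (-1.04) and Nop58 (-0.99) were farthest below, whereas Polr1a (0.24), Mybbp1a (0.08), Polr1b (0.07), Pes1 (0.06) and Nle1 (0.00) were not below the others. Smc3/Bcl6 tumor 1 was above the mean of the 8 tumors for 29 of the 32 genes (median 0.19), beside 52.1% of all genes (median 0.02). Smc3/Bcl6 tumor 5 was above it for 10 and below it for 22 (median -0.20), where 47.1% of all genes were above it (median -0.03). Of the 112 other ribosome biogenesis genes, 54 had their lowest value in Smc3/Bcl6 tumor 4.

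Markers of proliferation and of other cell types also differed in these tumors. The sum of 10 proliferation markers was lowest in Smc3/Bcl6 tumor 4 (1016 CPM, against 1560 to 3422 CPM in the others) and highest in Bcl6 tumor 1 (3422 CPM). It ranged from 2063 to 3422 CPM in Bcl6 and from 1016 to 2608 CPM in Smc3/Bcl6 tumors, with tumor 2 the highest of the latter. Their mean log2 CPM was 7.66 ± 0.43 (SD, n = 3) and 7.13 ± 0.47 (SD, n = 6). The difference was -0.52, or -0.62 without Smc3/Bcl6 tumor 2. Whether this bears on the genotype comparison of the 32 genes was not tested. Across tumors the mean log2 CPM of these 10 markers had r = 0.93 with that of the 32 genes, over 9 as over 8 tumors, and r = 0.84 without Smc3/Bcl6 tumors 2 and 4. Smc3/Bcl6 tumor 4 also had the highest sum of 7 erythroid markers (12922 CPM, against 44.7 to 4663 CPM) and of 8 B-cell markers (12075 CPM, against 3112 to 9429 CPM). Sums of 9 macrophage markers ranged from 441 to 7876 CPM in Bcl6 and from 270 to 8376 CPM in Smc3/Bcl6 tumors, and were low in tumor 1 of each genotype, in which the 32 genes were high. Sums of 9 T-cell markers ranged from 307 to 2754 CPM in Bcl6 and from 87.7 to 2507 CPM in Smc3/Bcl6 tumors. Those of 7 neutrophil markers, of which Ltf and Elane were at 0 in some tumor, ranged from 19.1 to 1842 and from 8.13 to 831 CPM. Those of 7 plasma-cell markers, with Tnfrsf17 at 0 in some tumor, ranged from 1722 to 2114 and from 884 to 5559 CPM. Those of 7 stromal and endothelial markers, with Col3a1 at 0 in some tumor, ranged from 113 to 138 and from 29.9 to 332 CPM. The highest of these sums was again that of Smc3/Bcl6 tumor 4, against 29.9 to 173 CPM in the others. The mean log2 CPM of these 7 markers ranked the tumors differently, with 3.06 in Smc3/Bcl6 tumor 5 and 2.25 in tumor 4. It was as low as -0.02 in Bcl6 tumor 1, so that genes with few counts weigh in it. This mean had r = -0.85 with that of the 32 genes over 9 tumors, -0.78 over 8 and -0.97 without Smc3/Bcl6 tumors 2 and 4. The part of cell composition in the levels of the 32 genes was not tested, and in bulk tumors fewer cells of a type and less RNA per cell cannot be told apart.

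**Figure D4:**
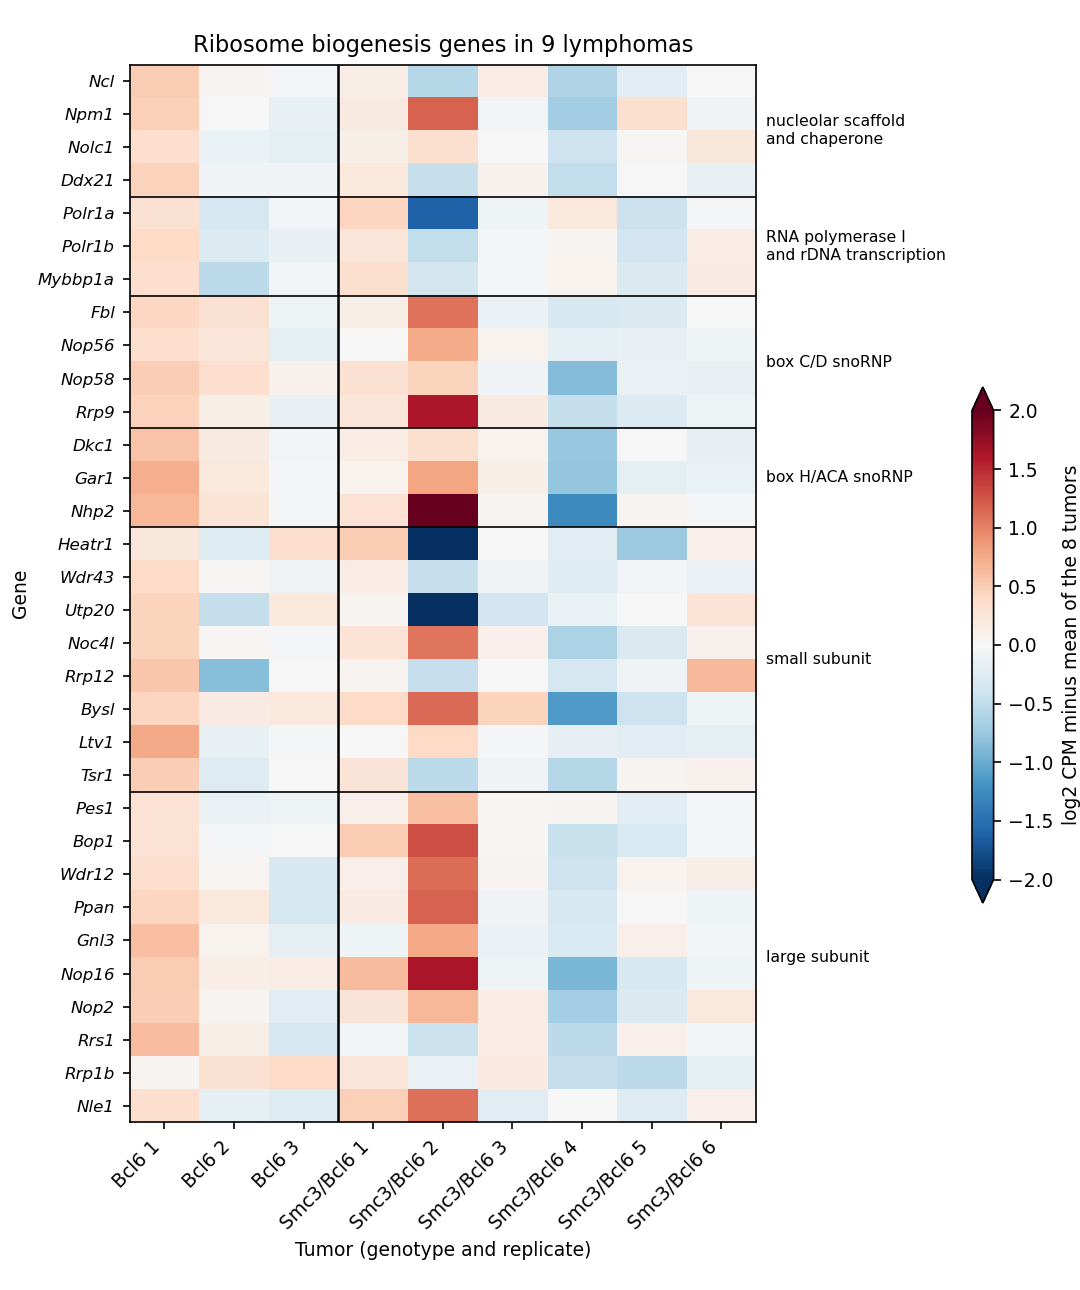
Log2 CPM of each of the 32 genes (rows, by role) in each tumor (columns) minus the gene's mean over the 8 tumors other than Smc3/Bcl6 tumor 2, in color from -2 (blue) to 2 (red). The column of Bcl6 tumor 1 is above 0 for all 32 genes, that of Smc3/Bcl6 tumor 4 is mostly below, and that of Smc3/Bcl6 tumor 2 holds the largest deviations in both directions (Nhp2, Heatr1 and Utp20 exceed the color range).

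The last comparison related the genes to Myc (ENSMUSG00000022346.9, GRCm38 chromosome 15 from 61985391 to 61990374). Myc was at 201, 166 and 151 CPM in the Bcl6 tumors 1 to 3 and 211, 285, 161, 127, 179 and 168 CPM in Smc3/Bcl6 tumors 1 to 6. Its highest and lowest values were Smc3/Bcl6 tumors 2 and 4, and the genotypes overlapped (log2 fold change 0.13, standard error 0.28, exact two-sided permutation p = 0.702). Without Smc3/Bcl6 tumor 2 its fold change was -0.01 (standard error 0.18). Of its family members, Mycl was between 2.03 and 9.99 CPM and Mycn at most 0.378 CPM.

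The mean of the 32 genes had a Pearson r of 0.80 (Spearman rho 0.73) with Myc across 9 tumors, both in log2 CPM, and 0.82 (rho 0.62) across 8 tumors without Smc3/Bcl6 tumor 2. Smc3/Bcl6 tumors 4 and 2 were farthest from the median of Myc, and without them r was 0.71 (rho 0.50), or 0.59 when the other 7 tumors were also rescaled without tumor 2. Without tumor 4 alone it was 0.53. Within the 6 Smc3/Bcl6 tumors r was 0.89. Among the 7 tumors labelled as lymph node it was 0.86, and 0.74 among the 6 of them other than Smc3/Bcl6 tumor 2. After each library was corrected for transcript length, r across 9 tumors was 0.48. Both measures come from the same libraries and share their scaling. Of the tumors left out in turn, Smc3/Bcl6 tumor 4 lowered r the most. Some marker lists moved with Myc as well. The mean of the macrophage markers had r = -0.42 with Myc over 9 tumors, -0.81 over 8 and -0.91 without Smc3/Bcl6 tumors 2 and 4. For proliferation markers these values were 0.67, 0.70 and 0.32, for erythroid markers -0.27, -0.71 and -0.42, for B-cell markers -0.25, -0.10 and 0.75, and for T-cell markers 0.03, -0.29 and -0.78. Stromal and endothelial markers had -0.67, -0.50 and -0.55. Weaker values were those of plasma-cell markers (0.38, -0.11 and 0.39) and neutrophil markers (-0.26, -0.36 and -0.18). The part of these marker lists in the relation was not tested.

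**Figure D5:**
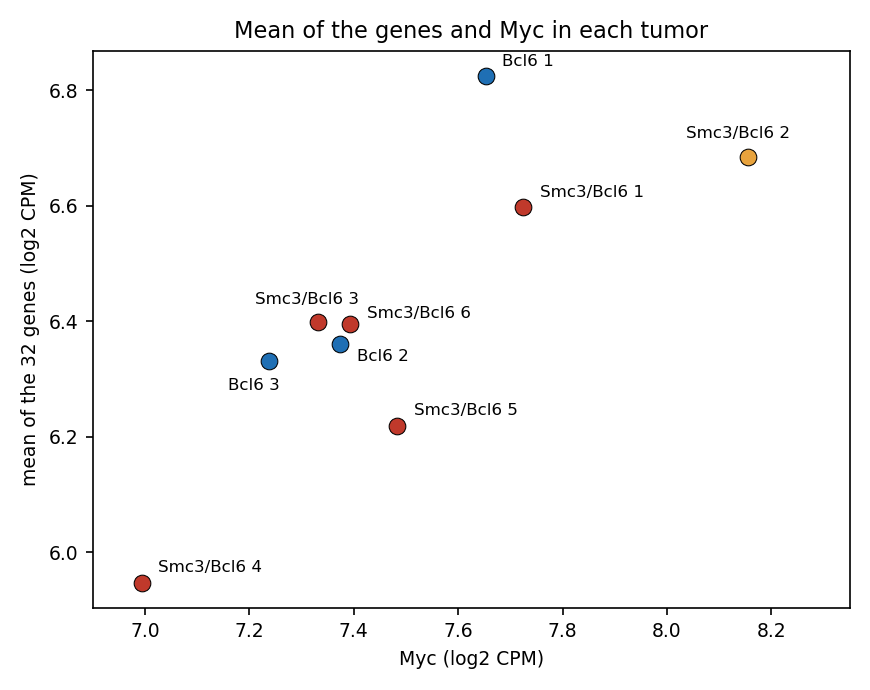
Mean log2 CPM of the 32 genes (y axis) against log2 CPM of Myc (x axis) in each of the 9 tumors, Bcl6 in blue, Smc3/Bcl6 in red and Smc3/Bcl6 tumor 2 in orange. Smc3/Bcl6 tumor 4 is lowest on both axes, tumor 2 is highest for Myc, and Bcl6 tumor 1 has the highest mean of the genes, at 6.82.

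Gene by gene, r with Myc was positive for 24 of the 32 over all 9 tumors (46.2% of all genes tested), with a median of 0.78 beside -0.09 over all genes, and above 0.5 for 20 of them (28.0% of all genes). Values then ran from -0.65 (Utp20), -0.60 (Polr1a) and -0.59 (Heatr1) to 0.96 (Npm1). By contrast, all 32 had a positive r with Myc across the 8 tumors without Smc3/Bcl6 tumor 2 (48.3% of all genes tested), with a median of 0.70 beside -0.03 over all genes, and r was above 0.5 for 22 of them (22.9% of all genes). Npm1 (0.89), Tsr1 (0.86), Ddx21 (0.86), Nhp2 (0.85) and Wdr12 (0.83) had the highest values. Polr1a (0.13), Pes1 (0.16), Rrp1b (0.25), Polr1b (0.25), Mybbp1a (0.26) and Heatr1 (0.26) had the lowest. By role, the median r was 0.84 for nucleolar scaffold and chaperone genes, 0.80 for box H/ACA, 0.72 for large-subunit, 0.63 for box C/D, 0.54 for small-subunit and 0.25 for RNA polymerase I genes. Over 9 tumors these medians were 0.46, 0.82, 0.85, 0.83, 0.05 and -0.22 in the same order, so that the sign for RNA polymerase I genes turned. Among further genes of the last role the median over 8 tumors was 0.52. Over 8 tumors, the 8 genes with an E-box in the promoter windows shown above had a median r of 0.47, with values from 0.16 (Pes1) to 0.86 (Tsr1), and the 19 without one had a median of 0.72, from 0.13 to 0.86. Over 9 tumors the medians were 0.36 and 0.81.

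The slope of each gene on Myc was then fitted beside genotype across all genes. Over all 9 tumors, 14 of the 32 genes rose with Myc and 0 fell at an adjusted p below 0.05 (edgeR), where 13.4% of all genes tested rose and 17.9% passed in either direction, and 19 rose at an unadjusted p below 0.05 (20.4% of all genes). The steepest were Nhp2, with a slope of 3.08 log2 units per log2 unit of Myc (standard error 0.36, adjusted p = 0.00817 from edgeR), Nop16 (2.07, standard error 0.27) and Rrp9 (1.70, standard error 0.30), all with short transcripts and high in Smc3/Bcl6 tumor 2. Without that tumor, 0 of the 32 and 0 of all genes passed an adjusted p of 0.05, and 15 of the 32 rose at an unadjusted p below 0.05 (10.7% of all genes), while all 32 slopes were positive. Nhp2 then had a slope of 2.10 (standard error 0.44, adjusted p = 0.144 from edgeR), Nop16 1.79 (standard error 0.40), Nop58 1.44 (standard error 0.31) and Npm1 1.42 (standard error 0.35), whereas Polr1a had 0.22 (standard error 0.49) and Pes1 0.10 (standard error 0.31). These 15 were 3 of 4 nucleolar scaffold and chaperone genes, 0 of 3 RNA polymerase I genes, 2 of 4 box C/D, 3 of 3 box H/ACA, 2 of 8 small-subunit and 5 of 10 large-subunit genes. Of the 112 other ribosome biogenesis genes, 25 rose at an unadjusted p below 0.05 over the 8 tumors. Without Smc3/Bcl6 tumors 2 and 4, 2 of the 32, Nhp2 and Nop16, rose at that level (3.83% of all genes), and with an offset for transcript length over 9 tumors 2 others did, Nop58 and Tsr1 (2.57% of all genes). When same-numbered tumors 1 to 3 were fitted as pairs in place of genotype, Nhp2, Bop1 and Nop16 rose (5.58% of all genes) and Utp20 fell (8.36%) at an adjusted p below 0.05 from edgeR. That fit includes Smc3/Bcl6 tumor 2.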

How the data were processed

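The authors sequenced TruSeq RNA libraries, ran the nf-core pipeline (STAR to mm10, featureCounts on Gencode genes) and deposited raw read counts per gene. All columns were matched to a sample. Genotypes and replicate numbers came from the labels. The genes and lists were chosen with earlier results of these data known. Positions and lengths were taken from GENCODE M21 (GRCm38, 97.9% of identifiers matched). Length is that of the principal transcript, the shortest where several are tagged.

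Counts were analyzed with edgeR 4.0.16 in R 4.3.3 (TMM scaling, its low-count filter, and quasi-likelihood tests adjusted over all genes tested after Benjamini and Hochberg), and log2 CPM used a prior count of 2. Myc slopes were fitted on Myc log2 CPM beside genotype. Standard errors for edgeR were the absolute log2 fold change or slope divided by the square root of its quasi-likelihood F statistic. Lying beyond 2 standard errors therefore restates that test and is no separate result. Exact permutation tests used 84 splits. The scripts were tested on simulated data. Alternatives were DESeq2 1.42.0, limma 3.58.1 with quality weights, other scalings, no filter, the tissue label, a length offset (lowess span 0.3), a replicate block and each tumor left out. Deviations of same-numbered tumors from their genotype means had r = 0.44, 0.11 and 0.16 across genes for numbers 1 to 3. Only the tumors numbered 1, which share the mesenteric label, thus deviated together to a sizeable degree. The pairing comes only from the labels' numbers.

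Values in every tumor are given for Myc, for the most abundant gene per kilobase of each role, and for the genes with the largest positive and negative fold change, the longest and shortest transcript and the largest SD. Utp20 was added after its values were seen. Totals per library limit precision only for low genes such as Fbl.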

Additional observations from a re-analysis of the deposited data

Results flagged for a closer look

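Dixon's ratio (the distance from the extreme tumor to the next one as a share of the whole range) was computed among the 6 Smc3/Bcl6 tumors for 40 measures. Chance alone would flag about 2 of 40 independent measures. These measures share the same libraries and are not independent, so the number flagged cannot be set against that. The ratio exceeded its critical value for 6 samples in 8 of them. Of these, 7 were single genes in Smc3/Bcl6 tumor 2, which was already known to stand apart. This tumor was the highest for Fbl (0.680), Nop56 (0.718), Rrp9 (0.653), Ltv1 (0.643), Wdr12 (0.652) and Ppan (0.677), and the lowest for Utp20 (0.788). Smc3/Bcl6 tumor 4 was the lowest for the mean of the nucleolar scaffold and chaperone genes (0.783).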

How the results depend on the processing

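Alternative values were compared for 9 measures of the comparisons and 8 named genes. Of 295, 276 kept their side of the threshold or stayed within the allowed spread, and the cause of the other 19 was not tested. The allowed spread did not require the same sign, so the count does not show that directions held. Nhp2 counted as kept at 0.57 over 9 tumors and -0.40 without Smc3/Bcl6 tumor 2. So did the difference in the mean of the genes, at -0.13 over 9 tumors and 0.06 with the replicate block. Counts that stayed at 0 were also among those kept. The count of genes past the thresholds was 1 higher with limma's quality weights and 1 lower with the replicate block, and the block changed no other call of the genotype comparison. Leaving out 1 tumor gave 0 to 1 of the 112 other ribosome biogenesis genes lower (Nol10 without Smc3/Bcl6 tumor 3 and Taf1a without tumor 4). In these fits 352 and 156 of all 14057 genes tested were lower by the same thresholds. DESeq2 gave no p for Nhp2. Genes rising with Myc at an adjusted p below 0.05 were 14 (13.4% of all genes), 0 with limma, 7 without the filter (3.82%), 0 with the length offset, 3 with the replicate block in place of genotype (5.58%, and 1 fell) and 0 without Smc3/Bcl6 tumors 2 and 4, an alternative added after seeing the data. With 1 tumor left out they were 0 to 14, namely 0 without Smc3/Bcl6 tumor 2, 7 without tumor 4 (8.3%) and 9 without Bcl6 tumor 2 (8.96%). Where the count was 0, it was 0 over all genes too. At an unadjusted p below 0.05 they were 19 (20.4%), with 2 under the length offset (2.57%), 10 with the block (15.2%), 2 without Smc3/Bcl6 tumors 2 and 4 (3.83%), and 14 to 18 with 1 tumor left out (10.7% to 20.7%). The correlation of the mean with Myc was 0.80, with 0.48 after length correction, 0.59 without Smc3/Bcl6 tumors 2 and 4, 0.77 for deviations from pair means under the block, and 0.53 to 0.84 with 1 tumor left out. The difference in the mean of the genes was -0.22 to -0.04 with 1 tumor left out, and -0.24 with total counts only. Of the named genes, Wdr43 and Rrp1b kept a negative log2 fold change in all 18 settings, and each of the others turned sign in 1 to 3 settings.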
